A study of Mus musculus with 6 samples.

Results

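The 10 genes followed here in the kidney of mice lacking Selenbp1 are widely used as readouts of fasting and of glucocorticoid hormones: Pdk4, Angptl4, Fgf21, Igfbp1, Txnip, Fkbp5, Ddit4, Sgk1, Klf15 and Foxo1. They were taken as every non-control probe of the array named for 1 of these genes, which gave 15 probes out of 56605 and 10 genes out of 37325. The rule itself used no measured value. The arrays measured total RNA of the left kidney of 3 wild-type (WT) C57BL/6J and 3 Selenbp1-knockout (Selenbp1-KO) mice, all male, with 1 array per mouse. All 6 mice were 8 weeks old and had been fasted for 20 h, and no fed mouse was on the arrays, so the values compare genotypes within the fasted state and do not measure the response to fasting. The WT mice came from a supplier and the Selenbp1-KO mice from a line described before by the same group. Whether the mice shared litters, and the hour at which the kidneys were taken, are not given in the sources used here. The tissue was whole kidney, in which fewer cells of a type and less RNA per cell cannot be told apart.

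During a fast, insulin falls while glucagon and corticosterone rise. With little insulin, the transcription factor Foxo1 is no longer held in the cytoplasm by Akt and turns on its target genes, while corticosterone activates the glucocorticoid receptor, which binds DNA at paired inverted half-sites. Several of the 10 genes, among them Pdk4, Igfbp1 and Klf15, are known targets of one or both factors, and others are targets of Ppara, the fatty acid sensor. The kidney makes glucose during a prolonged fast, and its proximal tubule burns mainly fatty acids. Corticosterone also acts on sodium transport in the distal nephron, where Sgk1 is a known target.

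Promoter sequence was read for motifs of the factors that carry these signals. RefSeq windows of the 250 bases before a transcription start (assembly GRCm38) were given for 9 of the 10 genes, the exception being Angptl4, and made up 14 windows, 6 of them for Sgk1. Both strands were searched for the glucocorticoid response element (AGAACA and TGTTCT with 3 bases of any kind between them), the insulin response core CAAAACA and the forkhead site GTAAACA. Each was found in 1 window, no match overlapped another, and 11 windows held none. The 3 windows with a motif are shown, 5′ to 3′ on the plus strand, with the motif in capitals.
Igfbp1: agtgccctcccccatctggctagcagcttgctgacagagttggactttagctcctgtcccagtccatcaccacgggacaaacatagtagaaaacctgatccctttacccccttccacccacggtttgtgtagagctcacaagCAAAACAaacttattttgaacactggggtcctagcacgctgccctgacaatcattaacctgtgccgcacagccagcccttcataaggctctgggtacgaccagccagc
Txnip: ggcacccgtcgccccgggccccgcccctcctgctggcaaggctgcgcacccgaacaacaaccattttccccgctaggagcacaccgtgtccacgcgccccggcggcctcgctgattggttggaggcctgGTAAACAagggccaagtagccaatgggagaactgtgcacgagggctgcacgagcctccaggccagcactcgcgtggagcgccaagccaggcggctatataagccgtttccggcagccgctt
Sgk1: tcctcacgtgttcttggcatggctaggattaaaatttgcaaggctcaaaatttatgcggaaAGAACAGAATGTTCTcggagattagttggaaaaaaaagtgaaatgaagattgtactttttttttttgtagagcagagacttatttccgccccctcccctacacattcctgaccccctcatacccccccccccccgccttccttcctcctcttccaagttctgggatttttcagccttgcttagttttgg
The Igfbp1 window, chr11:7197537-7197786, held the insulin response core 108 to 102 bases before the start. That core was present in 5.56% of the 32851 windows of the annotation. The Txnip window, chr3:96557707-96557956, held the forkhead site 121 to 115 bases before the start, against 3.17% of all windows. The glucocorticoid response element of Sgk1 lay 189 to 175 bases before 1 of its 6 starts, in chr10:21993640-21993889, and only 3 of all windows (0.00913%) held these letters. A match describes the letters in a window and does not show that a factor was bound.

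The 75th percentile of intensity was 711 and 751 units on WT replicates 2 and 3 and 477 to 584 on the other 4 arrays, with 51.8 to 55.5% of spots well above background and none saturated. Levels are given as log2 signal relative to the 75th percentile of the same array, so that 0 is that percentile and 1 unit is a 2-fold step. They can be compared between mice for 1 probe but not between probes. All 6 arrays were on 1 slide. The brighter pair, WT replicates 2 and 3, lay in 1 row of the slide, and WT replicate 4 and the 3 Selenbp1-KO arrays in the other. The targeted gene followed the labels: the Selenbp1 probe read 7.07, 7.02 and 7.02 in WT mice against 4.13, 3.98 and 4.10 in knockouts, which is −2.96 ± 0.098 (SE, n = 3 per genotype). Over 37028 genes tested with limma, 2544 (6.87%) rose in the knockout and 420 (1.13%) fell when called by an unadjusted p under 0.05, and 2 (0.00540%) passed after Benjamini-Hochberg adjustment. The share of rising genes among these calls, 85.8%, was 57.6% after quantile normalization, 59.2% in the authors' value table and 40.1% with slide row as a block.

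None of the 10 genes passed the test in either direction. In the same fit 8.00% of all genes had an unadjusted p under 0.05, and the lowest adjusted p among the 10 was 0.283 (Igfbp1). The methods' t-test on the same values gave 1 unadjusted call, Foxo1. Of the 10, 5 read above and 5 below WT, where 31.6% of all genes and 45.8% of those well above background read below. Differences ran from −0.47 for Igfbp1 to 0.20 for Ddit4, with a median of 0.0043. The 5 above include Fgf21, which was at background on all arrays. Of the other 9, 4 read above and 5 below WT, with a median of −0.0097. The median over all genes was 0.13, and 8 of the 10 lay below it, but this reference was 0.0037 after quantile normalization, 0.0051 in the authors' value table and 0.057 with slide row as a block. The median of the 10 was then −0.097, −0.087 and −0.15. Over the 19263 genes well above background in every mouse of a genotype the median difference was 0.016, with 5 of the 9 members in that class below it and 4 above. For these 9 genes the SE of a difference was between 0.10 and 0.23, and the widest of their intervals, that of Igfbp1, reached −1.03. Groups that did not overlap between genotypes were seen for 2 genes, Igfbp1 and Foxo1, both lower in all 3 Selenbp1-KO mice. The share was 14.1% of all genes (10.2% higher, 3.87% lower). Of the 19263 genes well above background it was 19.0%, with 2407 higher and 1255 lower.

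**Figure D1:**
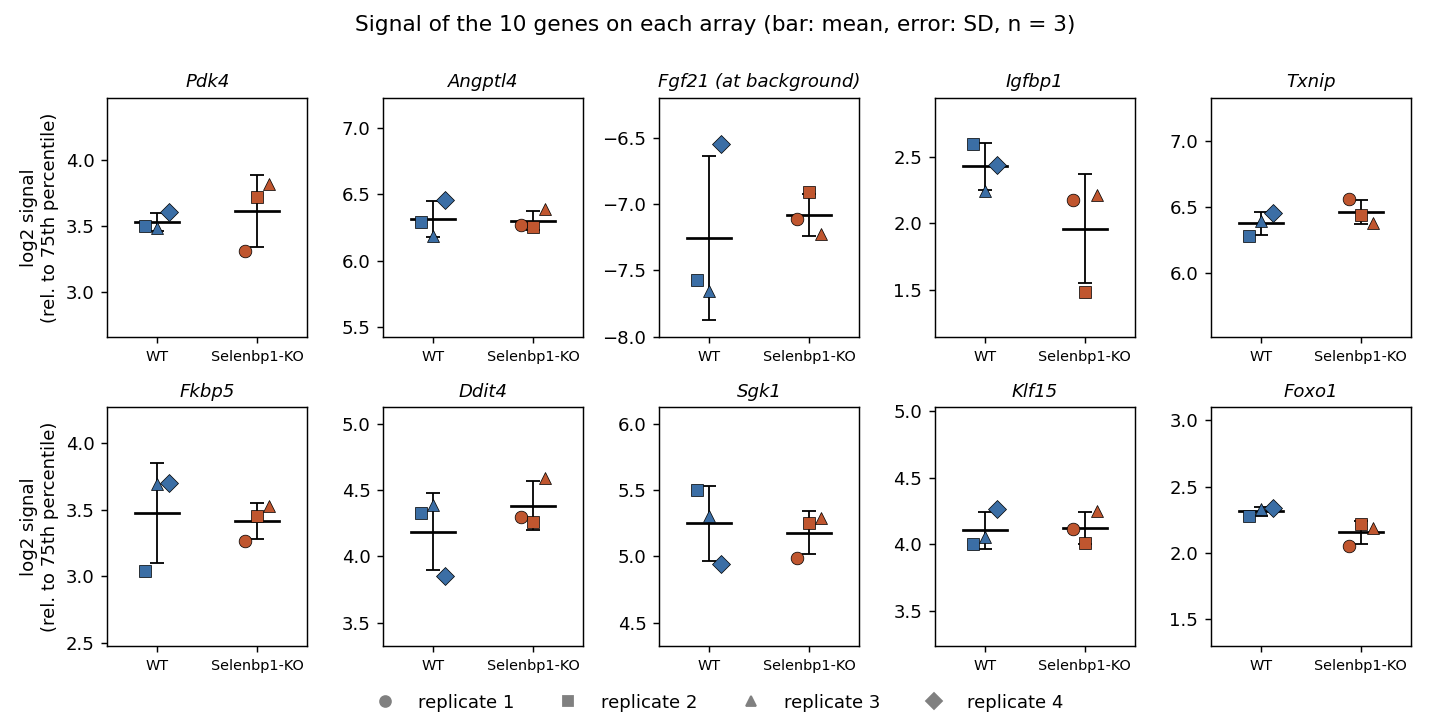
Each panel plots the log2 signal of 1 gene (brightest probe, relative to the array's 75th percentile) in the 3 WT (blue) and 3 Selenbp1-KO (orange) mice, with the mean as a bar and the SD as error, and all vertical axes span the same range. The WT and Selenbp1-KO points overlap in every panel except Igfbp1 and Foxo1, and Fgf21 was not well above background on any array.

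Pdk4 phosphorylates and shuts off the pyruvate dehydrogenase complex, sparing glucose carbon when fatty acids are burned. Its probe (NM_013743, mm9 chr6:5433441-5433500) read 3.50, 3.48 and 3.61 in WT and 3.31, 3.72 and 3.82 in Selenbp1-KO kidneys. The Selenbp1-KO mice lay on both sides of all WT mice, so the groups overlapped. The difference was 0.08 ± 0.16 (SE), with a 95% interval of −0.30 to 0.47 and an adjusted limma p of 0.828. Leaving out Selenbp1-KO replicate 3 turned it to −0.02, and leaving out replicate 1 raised it to 0.24.

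The other 13 genes of the pyruvate dehydrogenase list, which holds the complex, its other kinases, its phosphatases and the mitochondrial pyruvate carrier, had no gene past the threshold, though 1 rose and 1 fell after quantile normalization and in the authors' value table. In it 5 read higher and 8 lower, with a median of −0.04, where 45.8% of all genes well above background read lower. The kinase Pdk2 read 4.11 ± 0.16 in WT and 4.08 ± 0.065 in Selenbp1-KO kidneys (SD). The brightest of the list were the phosphatase subunit Pdp2, with a difference of 0.15 and an unadjusted p of 0.399, and the carrier subunit Mpc1, with a difference of 0.17 and an unadjusted p of 0.213.

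Angptl4, Fgf21 and Igfbp1 code for secreted proteins. Angptl4, which blocks lipoprotein lipase and so diverts triglyceride away from a tissue, read 6.29, 6.19 and 6.46 in WT and 6.26, 6.25 and 6.39 in Selenbp1-KO kidneys (NM_020581, mm9 chr17:33911880-33911939). The Selenbp1-KO values fell inside the WT range. The difference was −0.0097 ± 0.12, with an interval of −0.29 to 0.27 and an adjusted p of 0.977. It turned positive, to 0.06, without WT replicate 4.

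Of 10 other genes of the angiopoietin-like family and of lipoprotein lipase handling, 2 rose and none fell at an unadjusted p under 0.05, where 6.87% of all genes were called higher. No gene of the list was called with slide row as a block or without WT replicate 2, Selenbp1-KO replicate 1 or Selenbp1-KO replicate 2. All 10 read higher (9 after quantile normalization), with a median of 0.10, as did 68.4% of all genes, with a median of 0.13. Without Selenbp1-KO replicate 3, 7 of the 10 read higher and 3 lower, with a median of 0.036. Without WT replicate 4 and with the replicate block, 8 read higher and 2 lower. Gpihbp1, the capillary protein that anchors lipoprotein lipase, rose from 1.02, 1.20 and 1.18 in WT to 1.56, 1.68 and 1.38 in Selenbp1-KO kidneys, by 0.40 ± 0.12 (unadjusted p = 0.0165, adjusted 0.279; called in 13 of 18 settings). Angptl6, a secreted relative of Angptl4, rose by 0.29 ± 0.11 (unadjusted p = 0.0333, adjusted 0.279). It was called in 11 of 18 settings. The difference was 0.16 with slide row as a block (not called). The groups did not overlap for either gene, which was a condition for naming them.

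Fgf21, a hormone made mainly by the liver in fasting, did not rise well above background on any array (NM_020013, mm9 chr7:52869305-52869364). Its probe read −7.57, −7.66 and −6.55 in WT and −7.11, −6.91 and −7.22 in Selenbp1-KO kidneys. The Selenbp1-KO values lay within the WT range, and WT replicate 4 was the highest. Readings at background do not give a level, so no difference between genotypes is read from them. They passed the unadjusted threshold in 3 of 17 settings, reading lower with slide row as a block and higher with the replicate block and without WT replicate 4. Among 8 genes for FGF receptors, their Klotho partners and sister hormones, none passed the threshold. Klb, the co-receptor that Fgf21 requires, was well above background on 0 WT arrays and 1 Selenbp1-KO array. Kl and Fgfr4, the brightest of that list, differed by −0.016 and −0.00015.

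Igfbp1 showed the largest difference of the 10. It is a secreted binding protein for insulin-like growth factors that insulin represses and fasting induces, and its promoter window held the insulin response core shown above. The probe (NM_008341, mm9 chr11:7102442-7102501) read 2.60, 2.24 and 2.44 in WT and 2.18, 1.48 and 2.21 in Selenbp1-KO kidneys. Every Selenbp1-KO value was below every WT value, though the highest of the former, 2.21, was close to the lowest of the latter, 2.24. The level in Selenbp1-KO kidneys was 0.721 times that in WT, a difference of −0.47 ± 0.23 with an interval of −1.03 to 0.09. It missed the threshold, with an unadjusted limma p of 0.0838 and an adjusted p of 0.283, and was called in 1 of 18 alternative settings, normexp background correction (unadjusted p = 0.0339). The exact two-sided permutation test gave p = 0.10, the smallest that 3 against 3 mice allow. Selenbp1-KO replicate 2 carried much of the gap, since the difference was −0.23 without it and −0.60 without Selenbp1-KO replicate 3. Igfbp1 is also made in liver, and 6 hepatocyte markers had a mean level of 1.44 to 1.78 in WT and 0.20 to 2.27 in Selenbp1-KO kidneys. The hepatocyte level was lowest in Selenbp1-KO replicate 1 and Igfbp1 in replicate 2, and the part of these markers in the difference was not tested.

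A list of 15 other genes held the IGFs, their receptors, their binding proteins, the proteases that cut these and the stanniocalcins that block the proteases, and it gave the largest single change among the related genes, Igfbp6. In it 3 rose and none fell, where 6.87% of all genes were called higher. Of the 15, 12 read higher with a median of 0.13, while 68.4% of all genes read higher, also with a median of 0.13. Igfbp6, which binds IGF2 with preference, read 0.07, 0.99 and −0.37 in WT and 1.98, 2.10 and 2.06 in Selenbp1-KO kidneys. Every Selenbp1-KO mouse was above every WT mouse, and the rise was 1.82 ± 0.34, or 3.53-fold (unadjusted p = 0.00167, adjusted 0.279), and it was called in 18 of 18 settings. Igfbp3, the main carrier of IGFs in blood, lies next to Igfbp1 on chromosome 11 and rose from 5.30, 5.29 and 5.47 to 5.69, 5.66 and 5.58. The rise was 0.29 ± 0.10 (unadjusted p = 0.0304, adjusted 0.279). It was called in 10 of 18 settings. The difference was 0.11 with the mean of all probes (not called), 0.18 with slide row as a block (not called) and 0.18 after quantile normalization (called). Stc1, a secreted glycoprotein, rose from −4.26, −4.21 and −4.52 to −4.05, −3.67 and −3.72, by 0.52 ± 0.15 (unadjusted p = 0.0142, adjusted 0.279). These levels are low: the lowest signal well above background was −5.40 to −4.63 across the arrays. The difference was 0.32 after normexp background correction. Stc1 was called in 17 of 18 settings, and not with limma trend and robust (unadjusted p = 0.0557).

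**Figure D2:**
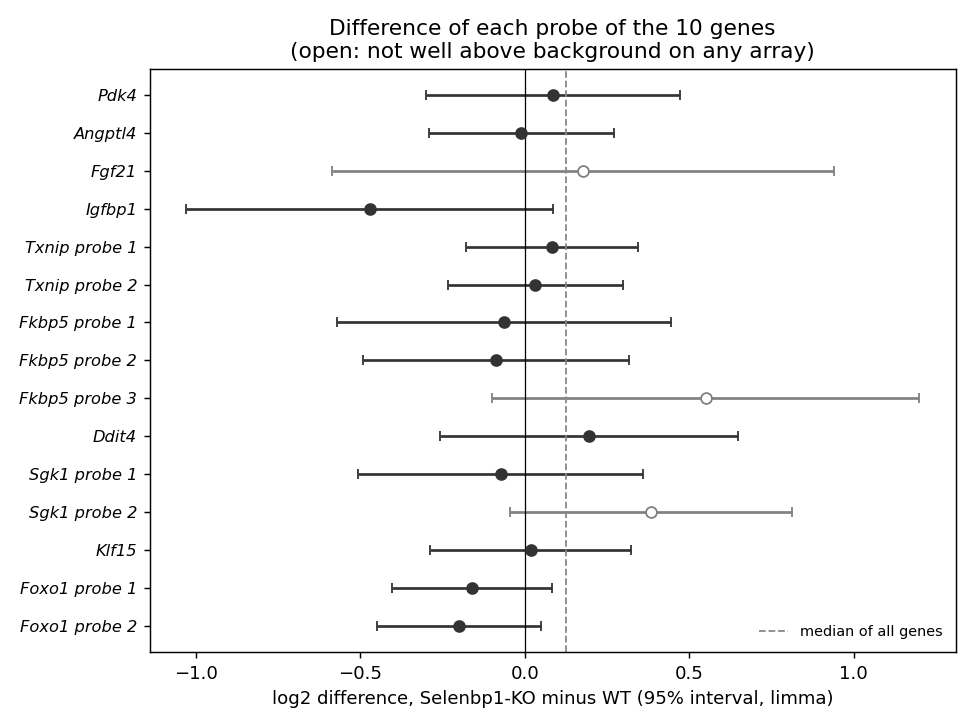
Points give the log2 difference (Selenbp1-KO minus WT) of each of the 15 probes with its 95% limma interval, open where the probe was not well above background on any array, and the dashed line is the median of all genes. Every interval includes 0, and the Igfbp1 point lies farthest to the left.

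Txnip binds thioredoxin and holds back glucose uptake. Its brighter probe (NM_001009935, mm9 chr3:96365340-96365399) read 6.28, 6.40 and 6.45 in WT and 6.56, 6.44 and 6.38 in Selenbp1-KO kidneys, and the groups overlapped. The difference was 0.08 ± 0.11, with an interval of −0.18 to 0.35 and an adjusted p of 0.735. It was −0.02 after quantile normalization. The other probe of the same transcript, at mm9 chr3:96364206-96364265, differed by 0.03. Txnip is on chromosome 3 like Selenbp1, 1.6 Mb from the Selenbp1 probe. A list of 12 genes held arrestin-family relatives, thioredoxin-system partners and Mlx, Mlxip and Mlxipl, and none passed the threshold. Of the 12, 5 read higher and 7 lower, where 31.6% of all genes and 45.8% of those well above background read lower. The brightest were the thioredoxins Txn2 and Txn1, with differences of 0.11 and 0.08.

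Fkbp5, a co-chaperone that damps the glucocorticoid receptor and is itself induced by it, read 3.04, 3.69 and 3.70 in WT and 3.27, 3.45 and 3.53 in Selenbp1-KO kidneys (NM_010220, mm9 chr17:28536060-28536119). All Selenbp1-KO values lay between the lowest and the highest WT mouse. The difference was −0.06 ± 0.21, with an interval of −0.57 to 0.45 and an adjusted p of 0.909, and it was −0.28 without WT replicate 2, the lowest array. A further probe of the same transcript at mm9 chr17:28574995-28575054 differed by −0.09. The third probe, for a separate Ensembl transcript, was not well above background on any array.

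The receptor's other partners and targets were read from lists of 15 and 30 genes. The glucocorticoid receptor Nr3c1 read 2.90 ± 0.16 in WT and 2.85 ± 0.10 in Selenbp1-KO kidneys, and the mineralocorticoid receptor Nr3c2 0.56 ± 0.060 and 0.50 ± 0.039 (SD). In the list of receptor, chaperones, steroid enzymes and exporters, 1 gene rose and 1 fell. Of its 15 genes 11 read lower, with a median of −0.07. Of all genes 6.87% were called higher and 1.13% lower, and 31.6% read lower, or 45.8% of those well above background. The falling genes were 5 after quantile normalization and in the authors' value table, where 1428 and 1372 of all 37028 genes fell. They were 3 by the methods' t-test (779 of all genes) and when only probes well above background were tested (555 of 19269). Hsd11b1, which regenerates active corticosterone from its inert form, rose from 3.71, 3.58 and 3.26 to 3.86, 4.17 and 4.12, by 0.53 ± 0.16 (unadjusted p = 0.0164, adjusted 0.279), and was called in 16 of 18 settings. Abcb1b, a P-glycoprotein that exports steroids and drugs, fell from 0.06, 0.08 and 0.09 to −0.34, −0.42 and −0.28, a difference of −0.42 ± 0.096 (unadjusted p = 0.00458, adjusted 0.279). It was called in 16 of 18 settings. The difference was −0.27 with the mean of all its probes (not called). Hsd11b2, which inactivates corticosterone in the distal nephron, differed by 0.08 with an unadjusted p of 0.633.

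Among the 30 other glucocorticoid targets, 1 rose and 1 fell, 15 read higher and 15 lower, and the median was 0.01. The shares called over all genes were 6.87% higher and 1.13% lower. The share reading lower was 31.6% over all genes and 45.8% over those well above background. After quantile normalization the list median was −0.04, and 2 rose and 3 fell, against 1941 and 1428 of all 37028 genes. The widely used targets Tsc22d3 and Per1 differed by −0.11 and −0.15, neither past the threshold. Cdkn1a, a cell cycle inhibitor, rose from −0.50, −0.22 and −0.88 to −0.16, 0.17 and 0.13, by 0.58 ± 0.20 (unadjusted p = 0.0256, adjusted 0.279). The difference was 0.31 with the mean of all probes (not called) and 0.92 with slide row as a block. It was called in 12 of 18 settings, and not by the methods' t-test or without WT replicate 2, WT replicate 4, Selenbp1-KO replicate 2 or Selenbp1-KO replicate 3. Irs2, the insulin receptor substrate that both fasting signals induce in liver, fell from 2.16, 2.24 and 2.44 to 2.01, 2.05 and 1.82, a difference of −0.32 ± 0.13 (unadjusted p = 0.0420, adjusted 0.279), called in 12 of 18 settings but, of the 6 that left out a mouse, only without WT replicate 2. The groups did not overlap for either gene.

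Ddit4 restrains the growth kinase mTORC1 and is raised by glucocorticoids and by energy stress. It read 4.32, 4.39 and 3.85 in WT and 4.30, 4.26 and 4.59 in Selenbp1-KO kidneys (NM_029083, mm9 chr10:59412486-59412545). WT replicate 4 was the lowest of the 6, and the other 5 values overlapped. The difference was 0.20 ± 0.18, with an interval of −0.26 to 0.65 and an adjusted p of 0.628. It fell to 0.03 without WT replicate 4, and it was 0.53 with an unadjusted p of 0.0308 when slide row was a block, a fit in which WT replicate 4 alone stands for WT. None of 14 other mTOR pathway genes passed the threshold, and 11 of them read lower, with a median of −0.09. Reading lower was seen for 31.6% of all genes and 45.8% of those well above background. In the authors' value table and after quantile normalization 3 of the 14 fell, against 1372 and 1428 of all 37028 genes. By the methods' t-test 2 of the 14 fell, against 779. Rheb, the activator of mTORC1, differed by −0.08, and the translation repressor Eif4ebp2 by −0.24 with an unadjusted p of 0.0637.

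Sgk1 is a kinase that keeps the epithelial sodium channel at the cell surface. Its main probe (NM_011361, mm9 chr10:21719390-21719449) read 5.50, 5.31 and 4.94 in WT and 4.99, 5.25 and 5.29 in Selenbp1-KO kidneys. The Selenbp1-KO values fell inside the WT range. The difference was −0.07 ± 0.18, with an interval of −0.51 to 0.36 and an adjusted p of 0.872, and it turned to 0.05 without WT replicate 2. The second probe, for another transcript, stayed at background on all arrays. Of 13 related kinases, channel subunits and regulators, 1 fell and none rose, with 6 reading higher and 7 lower. The shares over all genes were 1.13% called lower and 31.6% reading lower (45.8% of those well above background). Those that fell were 4 after quantile normalization and 3 in the authors' value table, against 1428 and 1372 of all 37028 genes. By limma trend and robust and by the methods' t-test, 3 fell and 1 rose, while 730 and 779 of all genes fell. The gene called, Rictor, a core part of the mTORC2 complex that activates Sgk1, fell from −1.23, −1.45 and −1.59 to −1.71, −1.72 and −1.85, a difference of −0.33 ± 0.13 (unadjusted p = 0.0408, adjusted 0.279). It was called in 9 of 18 settings. The difference was −0.13 with the mean of all probes, −0.17 with slide row as a block and −0.20 after normexp background correction, none of them called. The channel subunit Scnn1a differed by −0.11 with an unadjusted p of 0.385.

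Klf15 and Foxo1 code for transcription factors. Klf15, which drives amino acid breakdown and glucose production under glucocorticoids, read 4.00, 4.06 and 4.26 in WT and 4.11, 4.01 and 4.25 in Selenbp1-KO kidneys (NM_023184, mm9 chr6:90424982-90425040). The groups overlapped almost entirely. The difference was 0.018 ± 0.12, with an interval of −0.29 to 0.32 and an adjusted p of 0.959, and it was −0.02 after quantile normalization. Of 15 other Klf genes, 1 fell and none rose, with 11 reading lower and a median of −0.10. Among all genes 1.13% were called lower and 31.6% read lower (45.8% of those well above background). In the Klf list 2 fell after quantile normalization and in the authors' value table, against 1428 and 1372 of all 37028 genes. Klf3, a repressor, fell from 2.70, 2.70 and 2.94 to 2.47, 2.57 and 2.33, a difference of −0.32 ± 0.12 (unadjusted p = 0.0415, adjusted 0.279), called in 12 of 18 settings but, of those that left out a mouse, only without Selenbp1-KO replicate 2.

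Foxo1 was measured by 2 probes of transcript NM_019739, and both read lower in every Selenbp1-KO mouse. The brighter probe, at mm9 chr3:52150946-52151005, read 2.27, 2.33 and 2.34 in WT and 2.05, 2.22 and 2.19 in Selenbp1-KO kidneys. The other, at mm9 chr3:52153289-52153348, read 1.67, 1.74 and 1.54 in WT and 1.44, 1.48 and 1.45 in Selenbp1-KO kidneys. The groups did not overlap for either probe, and the 2 probes share the same RNA samples and are not separate replicates. The brighter probe differed by −0.16 ± 0.10, 0.895 times the WT level, with an interval of −0.40 to 0.08, an unadjusted limma p of 0.160 and an adjusted p of 0.421. The other differed by −0.20 ± 0.10, 0.871 times the WT level, with an unadjusted p of 0.0974 and an adjusted p of 0.310. The exact two-sided permutation p was 0.10 for the brighter probe. It passed the unadjusted threshold after quantile normalization (p = 0.0306), in the authors' value table (p = 0.0342) and by the methods' t-test (p = 0.0430), with differences of −0.16 to −0.17. Foxo1 lies 42.6 Mb from the Selenbp1 probe on chromosome 3.

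Of 26 other genes of FoxO and insulin signalling, 2 fell and none rose, where 1.13% of all genes were called lower. By sign, 15 read lower and 11 higher, with a median of −0.05. Among all genes 31.6% read lower, and 45.8% of those well above background. The first of the 2 that fell was Irs2, given above. The other, Foxo4, falls outside the rule by which genes were named and is given because of the count: it was well above background on 2 WT arrays and no Selenbp1-KO array, with an unadjusted p of 0.048. Foxo3 differed by −0.13 with an unadjusted p of 0.453. Over all 11 lists, 166 genes, 7 rose and 5 fell, the median was −0.02 and none passed after adjustment. These 12 genes stand against 8.00% of all genes, and 5.79% of those well above background, at the same threshold. Groups did not overlap for 12 of the 166 upward and 17 downward, against 14.1% of all genes and 19.0% of those well above background. After quantile normalization 29 of the 166 were called, against 3369 of 37028 genes.

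**Figure D3:**
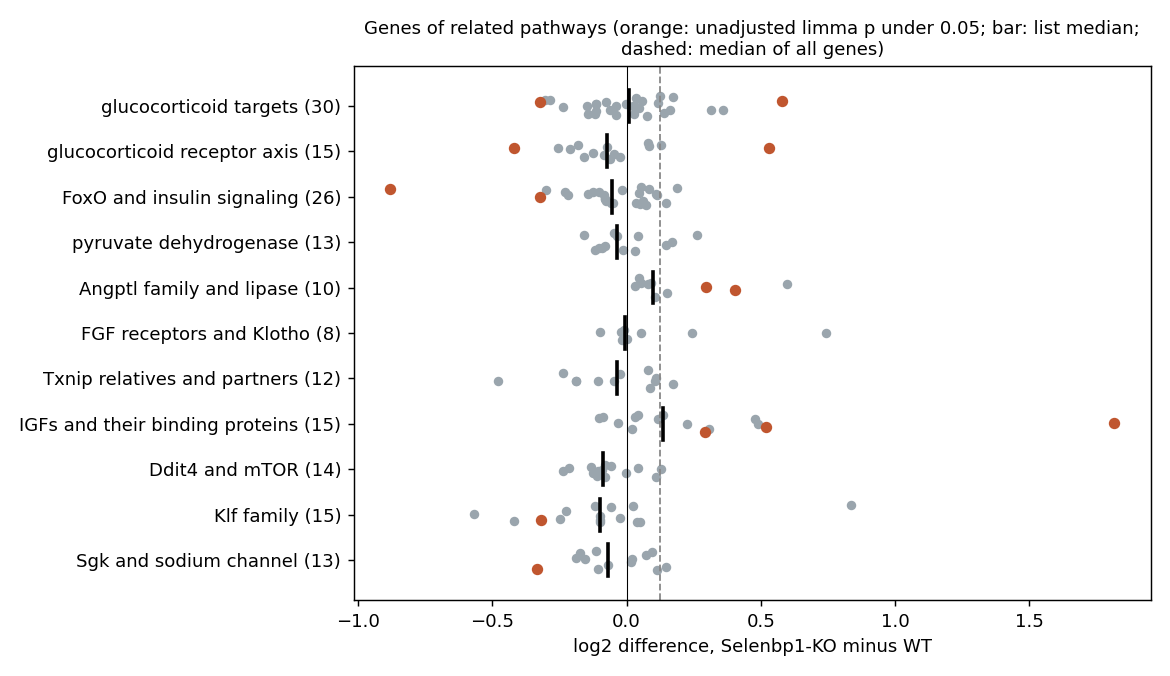
Each point is the log2 difference (Selenbp1-KO minus WT) of 1 gene of a related list, with the number of genes in brackets, the list median as a black bar, the median of all genes as a dashed line, and orange for an unadjusted limma p under 0.05. List medians lie between −0.10 and 0.13, and Igfbp6 is the point farthest to the right.

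Markers of the kidney's own tubules lay close together across the 6 arrays, and those of some other cells did not. The 10 proximal tubule markers had a mean level of 5.69 to 5.91 in WT and 5.74 to 5.83 in Selenbp1-KO kidneys, and 10 distal nephron markers 3.71 to 3.75 and 3.68 to 3.77, with no gene of either list past the threshold. The 8 glomerular markers had 0.64 to 0.73 and 0.56 to 0.72, and 1 of them, Synpo, rose by 0.29. Macrophage markers were higher in all 3 Selenbp1-KO mice, at −0.65 to −0.51 against −1.21 to −1.07 in WT. Of these 8 markers 6 rose, where 6.87% of all genes were called higher. Red blood cell markers were also higher, at 1.13 to 1.68 against 0.77 to 0.88, and 4 of the 6 measured rose. Fat markers, which matter here because Pdk4 and Angptl4 are also made by adipose tissue, varied between mice, from −0.29 to 1.005 in WT and from −0.32 to 2.35 in Selenbp1-KO kidneys, highest in Selenbp1-KO replicate 2. All 8 read higher by mean, with a median difference of 0.76, and none passed the threshold. Of 8 adrenal cortex markers, 4 were not above background on any array, and their mean level was −5.41 to −4.99 in WT and −5.05 to −4.86 in Selenbp1-KO kidneys. Skeletal muscle markers lay between −5.14 and −4.58 on all arrays. All 8 adrenal markers (median difference 0.28) and all 6 muscle markers (0.31) read higher and none was called, though after quantile normalization 5 of the 8 adrenal markers read higher. The part of these markers in the differences above was not tested.

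Which mouse was highest differed from gene to gene. WT replicate 4 gave the highest value of 5 of the 10 genes, among them Fgf21 at background, and the lowest of 2. Selenbp1-KO replicate 3 gave the highest of 2 and the lowest of none. Across 18 alternative settings Igfbp1 stayed between −0.60 and −0.23, Foxo1 between −0.19 and −0.10, and Ddit4 between 0.03 and 0.53, and these were the only 3 of the 10 whose sign held in all settings. The other 7, among them Fgf21 at background, changed sign in at least 1. For Igfbp1 and Foxo1, whose groups did not overlap, the sign could not turn when a mouse was left out or with either block. With slide row as a block, Igfbp1 differed by −0.48 and Foxo1 by −0.18, neither past the threshold.

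**Figure D4:**
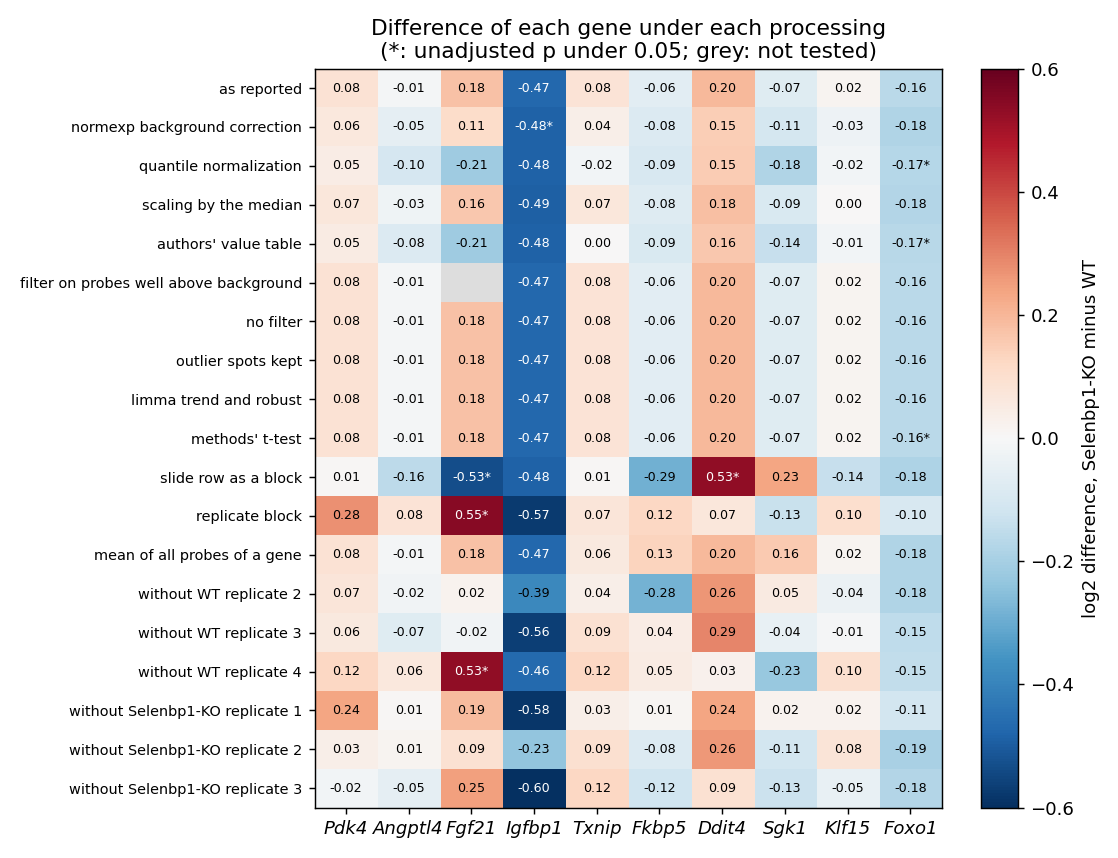
Each cell gives the log2 difference (Selenbp1-KO minus WT) of 1 gene under 1 processing setting, in blue where lower and red where higher in Selenbp1-KO kidneys, with an asterisk for an unadjusted p under 0.05 and grey where the gene was not tested. The Igfbp1 and Foxo1 columns are blue throughout, and asterisks appear for Igfbp1, Foxo1, Ddit4 and Fgf21 only.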

How the data were processed

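The authors labelled kidney RNA with Cy3 and hybridized it to a one-color Agilent whole-genome mouse array, 1 array per mouse. The deposited scanner files hold, for each of 62976 spots, the processed signal intensity after background subtraction and a p-value for detection above background, with outlier flags. Per the labels the software was Feature Extraction 9.5.1.1, whereas the file headers give 10.7.1.1. Per the file headers probe positions are on mm9.

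Here each processed intensity was divided by the 75th percentile of its array over non-control spots and put on the log2 scale. Spots flagged as outliers were dropped, repeated spots were averaged, and a probe was tested where its detection p was under 0.05 in 1 or more of the 6 arrays, which kept 56097 of 56605. Genotypes were compared with limma 3.58.1 (lmFit and eBayes, R 4.3.3) over all probes, at the unadjusted p under 0.05 of the study's methods, with Benjamini-Hochberg values over all probes beside it. A gene was read from its brightest probe over the 6 arrays, which gave 37028 genes, and 32994 probes were named through RefSeq. Well above background is the flag of the scanner software. The limma p-values, SEs and intervals use the spread between 3 mice per genotype, drawn by eBayes toward a spread common to all probes tested. They therefore do not measure the spread of these mice alone. The number of mice limits their precision. The members and lists were chosen with earlier results of these data known.

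Named genes were all members with their probes, Selenbp1, and of each list at most 4 genes with an unadjusted p under 0.05, well above background throughout 1 or both genotypes and not overlapping between genotypes, or the 2 brightest where a list had none; a few further list genes were named for their role after their values were seen. Other scalings, background correction, filters, models, blocks for slide row and replicate number, the methods' t-test and leaving out each mouse were tried as alternatives. The script was tested on simulated data.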

Additional observations from a re-analysis of the deposited data

How the results depend on the processing

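No gene of the 10 passed the unadjusted threshold after scaling by the median, with the stricter filter that keeps probes flagged well above background (9 genes tested), without a filter, with outlier spots kept, with limma trend and robust, with the mean of all probes or at an adjusted p under 0.05. The count was 1 after normexp background correction (Igfbp1, −0.48), 1 after quantile normalization (Foxo1), 1 in the authors' value table (Foxo1), 1 by the methods' t-test (Foxo1), 2 with slide row as a block (Ddit4 and Fgf21), 1 with the replicate block (Fgf21), and 0 to 1 when a mouse was left out, the 1 being Fgf21 without WT replicate 4. The median of the 10 was −0.097 after quantile normalization, −0.087 in the authors' value table, −0.15 with slide row as a block and 0.077 with the replicate block, and −0.049 to 0.056 when a mouse was left out. With slide row as a block, WT is represented by WT replicate 4 alone, which fixes those values.

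The count of all genes past the unadjusted threshold, 2964, was 9756 after scaling by the median, 5213 with limma trend and robust, 12286 with the replicate block, 2 at an adjusted p under 0.05, and 1294 (without WT replicate 2) to 11812 (without WT replicate 4) when a mouse was left out. Leaving out WT replicate 3 gave 1689, and Selenbp1-KO replicate 2, 1803. The count over the 166 genes of the related lists, 12, was 29 after quantile normalization and 27 in the authors' value table. Over all 37028 genes it was 3369 and 3360 there. The list count was 21 by the methods' t-test, against 2857, and 26 with limma trend and robust, against 5213. With the stricter filter the list count was 19, against 2000 of 19269 genes. At an adjusted p under 0.05 the list count was 0. It was 6 (without WT replicate 2 or WT replicate 3) to 13 when a mouse was left out. The share of higher calls among all genes was 40.1% with slide row as a block. The cause was not tested.

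Differences that turned sign were Klf15 (−0.029) after normexp, Fgf21 (−0.21), Txnip (−0.016) and Klf15 (−0.015) after quantile normalization, Fgf21 (−0.21) and Klf15 (−0.015) in the authors' value table, Fgf21 (−0.53), Klf15 (−0.14) and Sgk1 (0.23) with slide row as a block, Angptl4 (0.082) and Fkbp5 (0.12) with the replicate block, and Fkbp5 (0.13) and Sgk1 (0.16) with the mean of all probes, which takes in the probes at background. When a mouse was left out, the ranges were −0.016 to 0.24 for Pdk4, −0.071 to 0.064 for Angptl4, −0.023 to 0.53 for Fgf21, −0.28 to 0.049 for Fkbp5, −0.045 to 0.097 for Klf15 and −0.23 to 0.052 for Sgk1. The 11 further genes named past the threshold kept their sign in all 18 settings. Naming required groups that did not overlap, which fixes the sign when a mouse is left out and with either block. These genes were called in as few as 9 (Rictor), 10 (Igfbp3), 11 (Angptl6) and 12 (Cdkn1a, Irs2 and Klf3) settings. The count was 13 for Gpihbp1, 16 for Hsd11b1 and Abcb1b, 17 for Stc1 and 18 for Igfbp6.

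Replicate numbers 2 and 3 occur in both genotypes, and their deviations from the genotype means correlated at 0.164 and 0.211. With under 3 pairs and no label that ties equal numbers together, they were not treated as pairs except in the replicate block. The differences of that block rest on replicates 2 and 3 of both genotypes only. The number of mice, 3 per genotype, limits what can be detected, and Fgf21 and the dimmest probes of Fkbp5 and Sgk1 lay at background, where a level cannot be read.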
